A study of Mus musculus with 15 samples.

Results

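FGF8b, a splice form of the secreted fibroblast growth factor FGF8, was added to brown preadipocytes, which can mature into brown fat cells, and their transcripts were compared with those of cells that had received no FGF. Their source was interscapular brown adipose tissue of 129SvEv mice, from which the stromal-vascular cells had been taken and immortalised with the SV40 large T antigen, so both groups carried it. The comparison sets the 3 libraries labelled with FGF8b and no BAY-876 against the 3 labelled with no agent, 6 of the 15 libraries of the series, which also hold FGF1, FGF9 and FGF8b with the GLUT1 inhibitor BAY-876. FGF8b was given at 5.56 nM for 48 h. The series text gives 1 µg/ml heparin to all FGF treatments, the sample labels name it for FGF9 only, and neither states heparin or a culture time for control. If control had none, the action of FGF8b and that of heparin cannot be told apart here. Whether the 3 replicates are separate cultures is not stated, so p-values measure only the spread between libraries of the same group, which may be technical. SV40 large T antigen is known to bind the retinoblastoma and p53 proteins, which limits the line as a model of the cell cycle of primary preadipocytes.

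FGFs bind receptor tyrosine kinases together with heparan sulfate on the cell surface, and FGF8b prefers the mesenchymal c splice forms of these receptors. The activated receptors signal through RAS and ERK to ETS transcription factors, and the pathway induces its own inhibitors, such as the Sprouty proteins and the dual-specificity phosphatases. In brown fat, FGFs are known as signals between cells that can change thermogenic genes and the pool of precursors.

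The table held values for 29072 genes with a symbol, as RPKM, reads scaled by transcript length and by the size of the library, and 13869 of them had at least 0.5 RPKM in at least 3 libraries and were tested. Changes are log2 differences of FGF8b minus control ± SE on log2(RPKM + 0.5) from limma, with p-values adjusted over all tested genes by the Benjamini-Hochberg method. The level filter and the fit took in all 15 libraries, so SE and p-values rest on a spread shared by all 5 groups. The added 0.5 understates the changes of genes with low levels. The control libraries held 31.6 to 37.5 M reads and the FGF8b libraries 28.3 to 35.7 M. Correlations across genes were 0.9933 to 0.9959 within control, 0.9955 to 0.9964 within FGF8b and 0.9233 to 0.9318 between them. By limma, 8931 of the tested genes (64.4%) passed an adjusted p of 0.05, 5238 of them higher (37.8%) and 3693 lower (26.6%) with FGF8b. At least 2-fold changes among these were 676 rises (4.87%) and 1115 falls (8.04%), and 9368 genes (67.5%) had no overlap between the 3 FGF8b and the 3 control libraries. The median change of all tested genes was 0.08, and trimmed-mean scaling, which moved that median to 0.02, gave 4453 rises and 4244 falls. Since 64.4% of the genes passed, a count of members of a gene group says little by itself, and the 2-fold counts and medians below are read against these background shares. Most genes named below were chosen for passing with no overlap between the groups, so a separation of their libraries follows from that choice.

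The cells were checked against markers of brown preadipocytes and of other cells. The preadipocyte and fibroblast markers were all present in control, at a summed 3239.6 to 3715 RPKM, and 8 of 10 were lower with FGF8b, 5 of them at least 2-fold, for a sum of 1092 to 1283. Pdgfra, the PDGF receptor that marks mesenchymal precursors, went from 279, 274 and 276 to 34.6, 39.1 and 45.9 RPKM. Thy1 (0.72) and Ebf2 (0.18), a determinant of brown precursors, were higher. Markers of mature adipocytes summed to 7.08 to 8.79 RPKM in control and 8.08 to 9.95 with FGF8b, nearly all of it from 2 tested members. Fabp4, a fatty acid carrier, rose from 4.99, 6.66 and 5.94 to 6.95, 7.38 and 8.66 RPKM (0.36), and the lipase Lipe fell from 2.05, 2.097 and 1.52 to 1.11, 0.727 and 1.21 RPKM (-0.66). Adipoq, which defines these cells, was at 0, 0.0344 and 0 RPKM in control and 0, 0 and 0.0768 with FGF8b, and all 6 untested markers of that list were at or under 0.0917 RPKM. In the other lists the summed levels were low. They were 4.905 to 5.33 in control and 4.12 to 5.58 with FGF8b for skeletal muscle (0 of 1 tested marker passed), 6.32 to 7.87 and 5.51 to 6.27 for macrophages and leukocytes (1 of 5 rose and 2 fell), 4.15 to 5.65 and 6.12 to 7.44 for mural cells (2 of 4 rose and 1 fell), 5.13 to 5.55 and 4.11 to 4.54 for Schwann and neural cells (1 of 4 rose and 2 fell), and 0.526 to 1.23 and 0.4597 to 0.761 for bone and cartilage (the 1 tested marker fell). The leukocyte marker Ptprc was at 0, 0 and 0 RPKM in control and 0, 0 and 0.0128 with FGF8b. The mesothelium and epithelium markers summed to 8.24 to 9.21 RPKM in control and 19.9 to 23.01 with FGF8b, with Lrrn4, Epcam and Krt18 higher and Krt19 lower of 5 tested. The libraries are bulk samples, in which fewer cells of a type and less RNA per cell cannot be told apart.

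The 12 largest rises included secreted, membrane and cytosolic proteins. Spp1, which encodes the secreted phosphoprotein osteopontin (chromosome 5, 104435118 to 104441050 in the GENCODE annotation of GRCm38), was at 30.5, 31.5 and 31.8 RPKM in the control libraries and 3308, 3306 and 3289.6 RPKM in the FGF8b libraries. Its change was 6.70 ± 0.06, adjusted p = 9.10e-20, and its rank by level among all genes went from 2599 to 7. Il33, a cytokine of the interleukin-1 family released by damaged cells (chromosome 19, 29925114 to 29960718), was at 2.05, 1.53 and 1.32 RPKM in the control libraries and 84.03, 87.9 and 83.1 RPKM in the FGF8b libraries (5.34 ± 0.12, adjusted p = 7.40e-15). All FGF8b libraries lay far above all control libraries for both genes. Sema7a, a membrane-anchored semaphorin, went from 1.25, 1.22 and 1 to 42.6, 49.1 and 57.8 RPKM (4.92 ± 0.11, adjusted p = 6.53e-15), with the lowest FGF8b library many times the highest control library. Crabp1, which binds retinoic acid in the cytosol, went from 91.4, 96.5 and 73.1 to 1397, 1399 and 1593 RPKM (4.07 ± 0.11) and from rank 881 to 22.

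Several of the top rises started from next to nothing. Ucp1, the uncoupling protein that produces heat in brown fat mitochondria, was at 0.0464, 0 and 0.0216 RPKM in the control libraries and 25.7, 28.1 and 26.2 RPKM in the FGF8b libraries. These were 3 reads over the control libraries and 3146 over the FGF8b libraries, a ratio of levels of 1147 (exact 95% limits of 392 and 5564), which covers counting error only. Areg, the EGF receptor ligand amphiregulin, was at 0.0752, 0.111 and 0.06997 RPKM in the control libraries and 15.4, 16.6 and 15.8 RPKM in the FGF8b libraries, and the groups did not overlap. Car6, a secreted carbonic anhydrase, went from 0.6299, 0.609 and 0.3297 to 19.6, 13.1 and 10.9 RPKM (3.85 ± 0.21), with a wide spread among the FGF8b libraries, all above control. AI593442, a gene known in the table by its clone name only, went from 0.02403, 0.0664 and 0.0895 to 6.06, 6.65 and 7.51 RPKM (3.69 ± 0.10). Etv4, an ETS transcription factor induced by ERK, went from 1.698, 0.962 and 1.01 to 23.2, 22.5 and 25.02 RPKM (3.83 ± 0.13, adjusted p = 7.43e-13). The remaining 3 of the 12 largest rises, Cth, Trib3 and Chac1, belong to the ATF4 program described further on.

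The largest falls were of secreted and matrix proteins that the control cells made in large amounts. Igfbp3, which binds insulin-like growth factors in the circulation and tissue (chromosome 11, 7206086 to 7213923), was at 268, 247 and 285 RPKM in the control libraries and 1.09, 1.12 and 1.77 RPKM in the FGF8b libraries, a change of -7.21 ± 0.11, adjusted p = 1.44e-16. It went from rank 271 by level to 11635. Ogn, the small leucine-rich proteoglycan osteoglycin (chromosome 13, 49608046 to 49624501), was at 369, 428 and 454 RPKM in the control libraries and 4.93, 5.402 and 4.55 RPKM in the FGF8b libraries (-6.25 ± 0.09, adjusted p = 1.44e-16), and its rank went from 171 to 8705. All control libraries lay far above all FGF8b libraries for both genes. Clec3b, which encodes the plasminogen-binding protein tetranectin, went from 42.3, 32.7 and 35.1 to 0.0323, 0.0282 and 0.0356 RPKM. Over the 3 libraries of a group these were 3 reads with FGF8b and 3797 in control, where the level was higher by a ratio of 1157 (exact 95% limits of 396 and 5614). Aspn, the collagen-binding proteoglycan asporin, went from 55.95, 65.7 and 63.2 to 0.5004, 0.582 and 0.735 RPKM, and Egfl6, a matrix protein with EGF repeats, from 33.6, 32.7 and 37.5 to 0.2399, 0.209 and 0.172 RPKM.

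The other largest falls held growth and signalling genes. Igf1, the insulin-like growth factor, went from 119.6, 118 and 103 to 1.58, 1.94 and 3.04 RPKM (-5.44 ± 0.16, adjusted p = 1.70e-13). Mest, an imprinted gene linked to fat cell size, went from 48.02, 47.7 and 47.4 to 0.729, 0.782 and 0.505 RPKM (-5.37 ± 0.10, adjusted p = 1.94e-15). Apod, the lipid carrier apolipoprotein D, went from 287, 259 and 284 to 8.56, 7.67 and 8.696 RPKM, and none of these groups overlapped. Fat4, a giant protocadherin of planar cell polarity, went from 17.8, 17.2 and 19.9 to 0.132, 0.0524 and 0.159 RPKM. Sfrp4, a secreted WNT inhibitor, went from 21.7, 20.4 and 24.2 to 0.344, 0.1001 and 0.337 RPKM, Gas6, the ligand of the AXL and MERTK receptors, from 76.3, 62.3 and 68.1 to 2.14, 1.98 and 2.34 RPKM, and Ddit4l, a relative of the mTOR inhibitor Ddit4, from 22.3, 21.3 and 20.1 to 0.392, 0.2797 and 0.432 RPKM. The plot of the 24 largest changes shows these levels library by library.

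**Figure D1:**
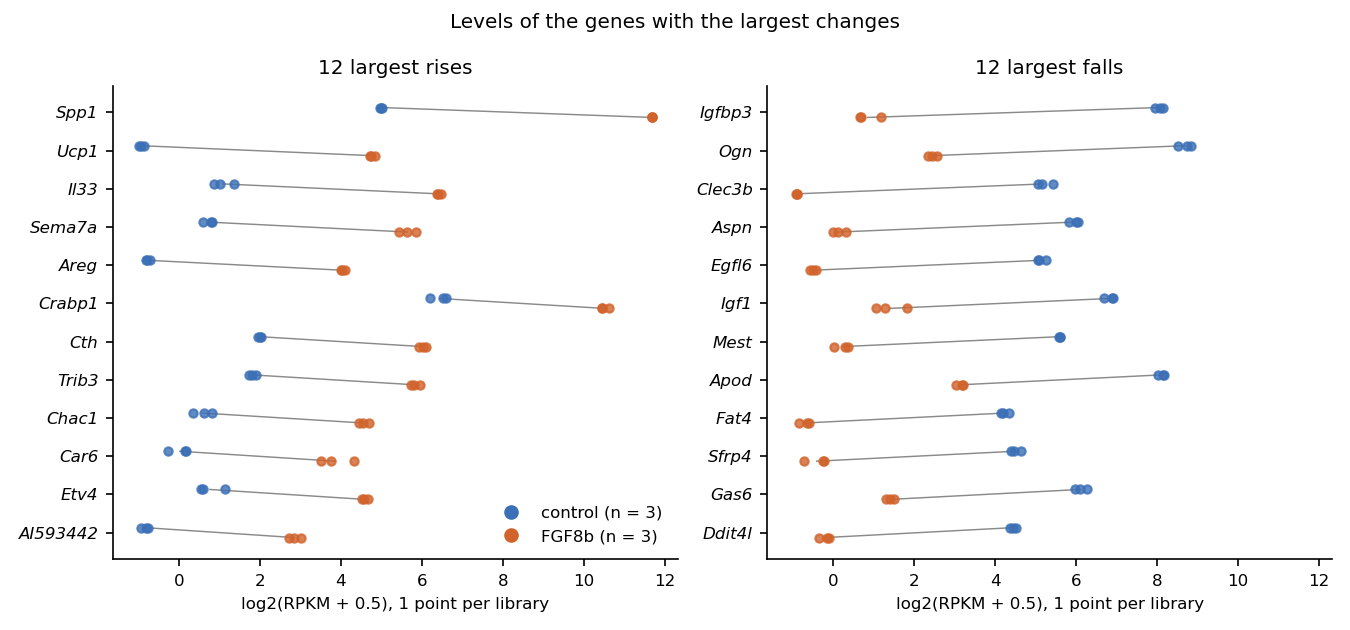
Levels of the 12 genes with the largest rises and the 12 with the largest falls in each control and FGF8b library, as log2(RPKM + 0.5), with lines joining the group means. The 3 points of a group lie close together compared with the distance between the groups, from a change of 6.70 for Spp1 to -7.21 for Igfbp3. The genes were chosen for large changes without overlap, so this separation follows from the choice.

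Among the receptors for FGFs, Fgfr1 carried most of the transcript and did not pass the test. It was at 79, 64.8 and 69.01 RPKM in the control libraries and 69.7, 62.3 and 72.4 RPKM in the FGF8b libraries, with overlapping groups (a difference of -0.06 ± 0.07, adjusted p = 0.517 in limma). Fgfr2 fell from 3.56, 2.74 and 3.396 to 0.5699, 0.995 and 1.404 RPKM (-1.36 ± 0.20, adjusted p = 2.03e-05), Fgfrl1, a receptor without a kinase domain, rose from 5.78, 5.34 and 4.71 to 7.59, 7.25 and 6.91 RPKM (0.43 ± 0.10), and Fgfr3, at a low level, also rose (0.34). In the list of receptors, 2 of 4 tested members rose and 1 fell, 0 and 1 of them at least 2-fold (median 0.14); Fgfr4 and the klotho coreceptors Kl and Klb were at or under 0.0459 RPKM. Of the ligands the cells made themselves, 2 of 6 tested members rose and 3 fell, 2 and 2 of them at least 2-fold (median -0.26). Fgf7, the keratinocyte growth factor and the most abundant of them, fell from 73.97, 75.4 and 79.3 to 47.8, 50.6 and 44.3 RPKM (-0.68 ± 0.07), and Fgf10, its relative in adipose development, fell from 8.82, 9.26 and 9.56 to 2.08, 2.07 and 2.01 RPKM (-1.93 ± 0.10). Fgf18 fell as well (-1.13), while Fgf21, a hormone-like FGF and a known ATF4 target, rose from 0.181, 0.0668 and 0.0281 to 3.05, 1.98 and 2.43 RPKM (2.33 ± 0.18).

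Heparan sulfate genes, which make the coreceptor of FGFs, went both ways. Of carriers and enzymes of heparan sulfate, 8 of 27 tested members rose and 13 fell, 3 and 3 of them at least 2-fold (median -0.24). Sulf2, an extracellular enzyme that removes sulfates from heparan sulfate, was at 35.5, 35.5 and 32.1 RPKM in the control libraries and 1.06, 0.971 and 1.11 RPKM in the FGF8b libraries, without overlap (-4.49 ± 0.07, adjusted p = 3.13e-16). Its relative Sulf1 changed by -0.90. Ndst3, a sulfotransferase of the chain, rose from 0.3395, 0.206 and 0.316 to 4.87, 4.88 and 5.93 RPKM (2.86 ± 0.11), and Glce, the epimerase of glucuronic acid, from 12.1, 12.2 and 13.3 to 36.2, 35.4 and 34.2 RPKM (1.46 ± 0.07). The cell-surface carrier Gpc1 rose by 1.03, whereas the glypican Gpc6 (-1.31) and agrin (Agrn, -1.40) fell.

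The inhibitors induced by ERK signalling split between the members. Of the feedback inhibitors, 9 of 18 tested members rose and 5 fell, 8 and 2 of them at least 2-fold (median 0.47). Dusp6, the phosphatase specific for ERK, was at 1.45, 1.23 and 1.35 RPKM in the control libraries and 18.1, 18.5 and 19.3 RPKM in the FGF8b libraries, with no overlap (3.37 ± 0.09, adjusted p = 3.67e-14). Dusp4 rose from 1.03, 0.833 and 1.11 to 12.9, 11.8 and 11.7 RPKM and Spry4, a Sprouty inhibitor, from 0.296, 0.367 and 0.384 to 5.81, 6.101 and 6.498 RPKM, and Spred1, Spred2 and Spred3, inhibitors of the RAS to RAF step, rose by 1.04, 1.17 and 1.77. Spry1 (-0.16) and Spry2 (0.13) did not pass. Lower were Dusp10 (-1.71), a phosphatase of p38 and JNK, the early-response phosphatase Dusp1 (-0.82) and Il17rd (-1.24), the FGF signalling inhibitor also called SEF.

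Of ETS and early response transcription factors, 12 of 31 tested members rose and 11 fell, 7 and 2 of them at least 2-fold (median 0.24). The 3 PEA3 factors rose together: Etv4 by 3.83, Etv5 by 3.12 (3.83, 2.63 and 3.199 to 31.6, 29.6 and 33.5 RPKM) and Etv1 by 2.32. Atf3, a stress-induced partner of the AP-1 family, rose by 2.76 and the AP-1 member Fosl1 by 1.73. Other members of the family were lower at this time, with Fosl2 at -0.90, Fos at -0.50 and the immediate-early gene Egr1 at -0.45. Klf4, a zinc-finger factor of growth arrest, fell from 15.8, 12.4 and 13.7 to 4.19, 2.84 and 3.95 RPKM (-1.80 ± 0.15), and the ETS factor Elf1 fell too (-1.10).

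The EGF receptor ligands Areg, Ereg and Hbegf rose and the receptor fell. In the EGF family, 5 of 10 tested members rose and 2 fell, 3 and 2 of them at least 2-fold (median 0.25). After Areg came Ereg (epiregulin), from 0.284, 0.291 and 0.2898 to 3.82, 4.35 and 3.98 RPKM, and Hbegf, the heparin-binding ligand, from 2.06, 1.598 and 1.69 to 12.6, 12.2 and 12.9 RPKM (2.52 ± 0.08). Egfr itself was at 36.5, 34.6 and 35.5 RPKM in the control libraries and 7.82, 8.11 and 8.72 RPKM in the FGF8b libraries (-2.05 ± 0.09, adjusted p = 9.45e-12). Nrg1, the neuregulin that binds ERBB3 and ERBB4, fell from 8.43, 8.48 and 8.19 to 0.657, 0.495 and 0.6497 RPKM (-3.01 ± 0.10). The groups of these genes did not overlap, which was a condition of their choice. Erbb2 (0.02) and Erbb3 (0.15) did not pass.

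The insulin-like growth factor axis was mostly lower. Of its genes, 4 of 15 tested members rose and 10 fell, 2 and 7 of them at least 2-fold (median -0.94), and the summed level of the list was 756 to 820.5 RPKM in control and 192 to 209.7 with FGF8b. Besides Igf1 and Igfbp3, Igfbp5 fell (-2.47), the insulin receptor substrate Irs1 (-1.82), Igfbp7 (-1.57) and Igf2 (-1.07). Stc2 (rise 1.92) and Stc1 (rise 1.15), which inhibit the cleavage of IGF-binding proteins, and Igf2r (0.84), which clears IGF2, went up. Igf1r fell slightly (-0.28) and Insr did not pass (-0.11).

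Of the PDGF, VEGF, angiopoietin, HGF and KIT genes, 7 of 22 tested members rose and 12 fell, 3 and 10 of them at least 2-fold (median -0.42). Vegfa, the main growth factor of blood vessels, rose from 10.6, 10.3 and 12.6 to 48.6, 50.4 and 56.2 RPKM (2.17 ± 0.11), and the ligands Pdgfa and Pdgfc rose by 1.76 and 1.32. Figf, the gene of VEGF-D, fell from 61.7, 58.6 and 69.1 to 2.21, 2.25 and 2.92 RPKM (-4.43 ± 0.09, adjusted p = 2.91e-15), and the angiopoietin Angpt2 fell (-2.92). The receptors Pdgfra (-2.79), Pdgfrb (-1.45), Nrp1 (-1.48) and Nrp2 (-1.54) were all lower. Kdr, the VEGF receptor of endothelium, fell from 5.93, 5.61 and 6.996 to 0.0123, 0.0322 and 0.0406 RPKM, and Tek, the angiopoietin receptor, fell too (-1.63). Both are endothelial markers: of that list 2 of 3 tested members fell and its sum was 7.66 to 8.98 RPKM in control and 0.404 to 0.5904 with FGF8b, while the defining markers Pecam1 (0, 0.0211 and 0.00887 and 0.0214, 0.0932 and 0.129 RPKM) and Cdh5 (0.0585, 0.0242 and 0.0340 and 0.0328, 0.0643 and 0.0451) were at or near 0 in control and with FGF8b.

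Neurotrophin and GDNF family genes had 3 of 9 tested members higher and 3 lower, 1 and 2 of them at least 2-fold (median 0.06). Bdnf, a neurotrophin, rose from 2.28, 2.296 and 2.19 to 8.83, 9.19 and 9.06 RPKM (1.79 ± 0.08), and Artn, a ligand of the GDNF family, by 0.87. Ngfr, the low-affinity neurotrophin receptor, fell from 7.67, 6.54 and 6.76 to 0.104, 0.0824 and 0.187 RPKM (-3.58 ± 0.10), and Gfra1 (-1.01). For semaphorins and plexins, 5 of 25 tested members rose and 11 fell, 2 and 5 of them at least 2-fold (median -0.02). Next to Sema7a, Sema5a rose by 2.17 and Sema4d by 0.93, while all 6 tested class 3 semaphorins, which are secreted, fell. Among them were Sema3d (-3.01), Sema3c, from 33.5, 34.8 and 32.9 to 7.76, 9.02 and 8.198 RPKM (-1.96 ± 0.07), and Sema3e (-1.54). Of ephrins and EPH receptors, 3 of 15 tested members rose and 9 fell, 1 and 2 of them at least 2-fold (median -0.39). Epha2 (1.57), Efnb2 (0.89) and Efna1 (0.38) rose, and Ephb3 (-1.17), Ephb2 (-1.11) and Efnb1 (-0.91) had the largest falls.

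ATF4 is the transcription factor translated when amino acids run short or the endoplasmic reticulum is stressed, and it turns on amino acid synthesis, transport and tRNA charging. It binds the CARE element (C/EBP-ATF response element), searched here as TGATGNAA on both strands of the RefSeq promoters, which reach from 250 bases before the start of a gene to 50 after it. This element was in 7 of 23 ATF4 program members with a promoter (30.43%) and in 305 of 10381 tested genes with a promoter (2.938%). A match is a description of the letters and not a measured site. The lists searched for motifs here and below were written from general knowledge of each program, with earlier results of these data known. Their counts of rises and falls are descriptions for that reason. A higher share of matches than in other genes can therefore follow from the choice of members. The 3 members with the largest rises among those with a match in the 250 bases before the start are printed 5′ to 3′ along the gene, from RefSeq on GRCm38.p6, with the match in capitals, to show where it lies: Chac1 (chr2:119350992-119351241, plus strand), 193 to 186 bases before the start, Asns (chr6:7693210-7693459, minus strand), 23 to 16 bases before it, and Nupr1 (chr7:126625471-126625720, minus strand), 110 to 103 bases before it.
Chac1: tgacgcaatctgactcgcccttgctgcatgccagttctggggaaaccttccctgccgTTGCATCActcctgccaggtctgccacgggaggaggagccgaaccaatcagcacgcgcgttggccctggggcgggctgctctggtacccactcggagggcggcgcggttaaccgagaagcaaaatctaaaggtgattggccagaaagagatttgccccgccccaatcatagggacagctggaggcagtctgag
Asns: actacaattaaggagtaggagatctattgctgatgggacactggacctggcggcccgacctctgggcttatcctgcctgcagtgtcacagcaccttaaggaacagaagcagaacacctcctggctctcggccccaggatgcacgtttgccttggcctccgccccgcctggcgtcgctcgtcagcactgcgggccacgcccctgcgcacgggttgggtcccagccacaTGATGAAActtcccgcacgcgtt
Nupr1: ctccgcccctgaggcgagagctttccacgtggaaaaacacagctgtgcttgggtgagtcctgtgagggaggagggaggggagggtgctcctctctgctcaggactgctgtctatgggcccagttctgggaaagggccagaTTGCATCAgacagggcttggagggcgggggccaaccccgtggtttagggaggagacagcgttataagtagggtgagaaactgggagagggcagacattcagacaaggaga

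The ATF4 program rose as a whole: 25 of 25 tested members rose and 0 fell, 25 and 0 of them at least 2-fold (median 2.16). The summed level of the list was 477 to 506 RPKM in control and 2291 to 2428 with FGF8b. Each of the 25 rose at least 2-fold in every alternative setting. Chac1, which degrades glutathione, was at 1.25, 1.02 and 0.773 RPKM in the control libraries and 25.2, 21.4 and 22.7 RPKM in the FGF8b libraries (3.97 ± 0.13, adjusted p = 3.70e-13). Trib3, a pseudokinase that restrains ATF4, was at 2.96, 2.79 and 3.24 RPKM in the control libraries and 61.9, 52.6 and 55.02 RPKM in the FGF8b libraries, and Cth, which makes cysteine from cystathionine, at 3.51, 3.39 and 3.55 RPKM in the control libraries and 68.8, 65.3 and 59.98 RPKM in the FGF8b libraries. No FGF8b library overlapped control for these 3 genes, which were chosen on that condition. Asns, the asparagine synthetase, rose from 16.8, 16.2 and 18.1 to 160.4, 156 and 160.5 RPKM (3.19 ± 0.06), and Atf4 itself from 81.6, 78.6 and 78.9 to 312, 307 and 319.7 RPKM (1.97 ± 0.04).

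The program holds enzymes of several amino acid pathways. Of serine synthesis, Phgdh, Psat1 and Psph rose by 2.03, 2.19 and 2.20, and of mitochondrial folate metabolism Mthfd2 rose by 3.42, Shmt2 by 2.86, Aldh1l2 by 2.51 and Mthfd1l by 2.55. The proline enzymes Aldh18a1 (1.82) and Pycr1 (1.66) and the aminotransferases Gpt2 (3.39) and Got1 (1.32) were higher too. Regulators in the list were Ddit3, the stress factor CHOP (2.16), Ppp1r15a, which ends the translation block (2.80), Sesn2, an inhibitor of mTORC1 (1.86), Atf5 (1.44), Cebpg (1.49) and the chromatin-linked stress protein Nupr1 (1.81). Gdf15, a secreted stress signal, rose from a low level, 0.374, 0.223 and 0.0803 to 1.68, 1.77 and 2.06 RPKM.

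Of amino acid transporters, 14 of 21 tested members rose and 5 fell, 7 and 3 of them at least 2-fold (median 0.31). Slc7a5 and Slc3a2, the light and heavy chain of the transporter of large neutral amino acids, rose by 2.55 (16.3, 15.7 and 15.7 to 99.4, 88.9 and 99.2 RPKM) and 2.04. The carriers of cationic amino acids Slc7a3 (3.15) and Slc7a1 (2.54) and the glycine carrier Slc6a9 (1.96) rose as well. The glutamate transporter Slc1a3 fell from 61.3, 67.2 and 65.5 to 11.4, 11.1 and 12.2 RPKM (-2.43 ± 0.06, adjusted p = 3.26e-14), and Slc38a4 and Slc43a1 fell, at -1.52 and -1.10. Among cytosolic tRNA synthetases, 19 of 20 tested members rose and 0 fell, 13 and 0 of them at least 2-fold (median 1.53). The largest rises were those of Lars (from 29.7, 29.3 and 30.6 to 137, 132 and 132 RPKM), Iars (2.06) and Sars (1.95), and Farsa (0.15) did not pass. Mitochondrial tRNA synthetases had 7 of 17 tested members higher and 2 lower, 0 and 1 of them at least 2-fold (median 0.18), with Rars2 at 0.87, Ears2 at 0.64 and Nars2 at 0.63. Fars2 fell (-0.30), a call lost without FGF8b replicate 2, FGF8b replicate 3 or control replicate 1 (adjusted p = 0.0556, 0.0548 and 0.128 in limma). The 2-fold fall in that list was Lars2, at 67.97, 221 and 39.1 RPKM in the control libraries and 31.1, 40.5 and 31.9 RPKM in the FGF8b libraries, where control replicate 2 stood apart and the groups overlapped. Without that library, 0 members of the list fell 2-fold.

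**Figure D2:**
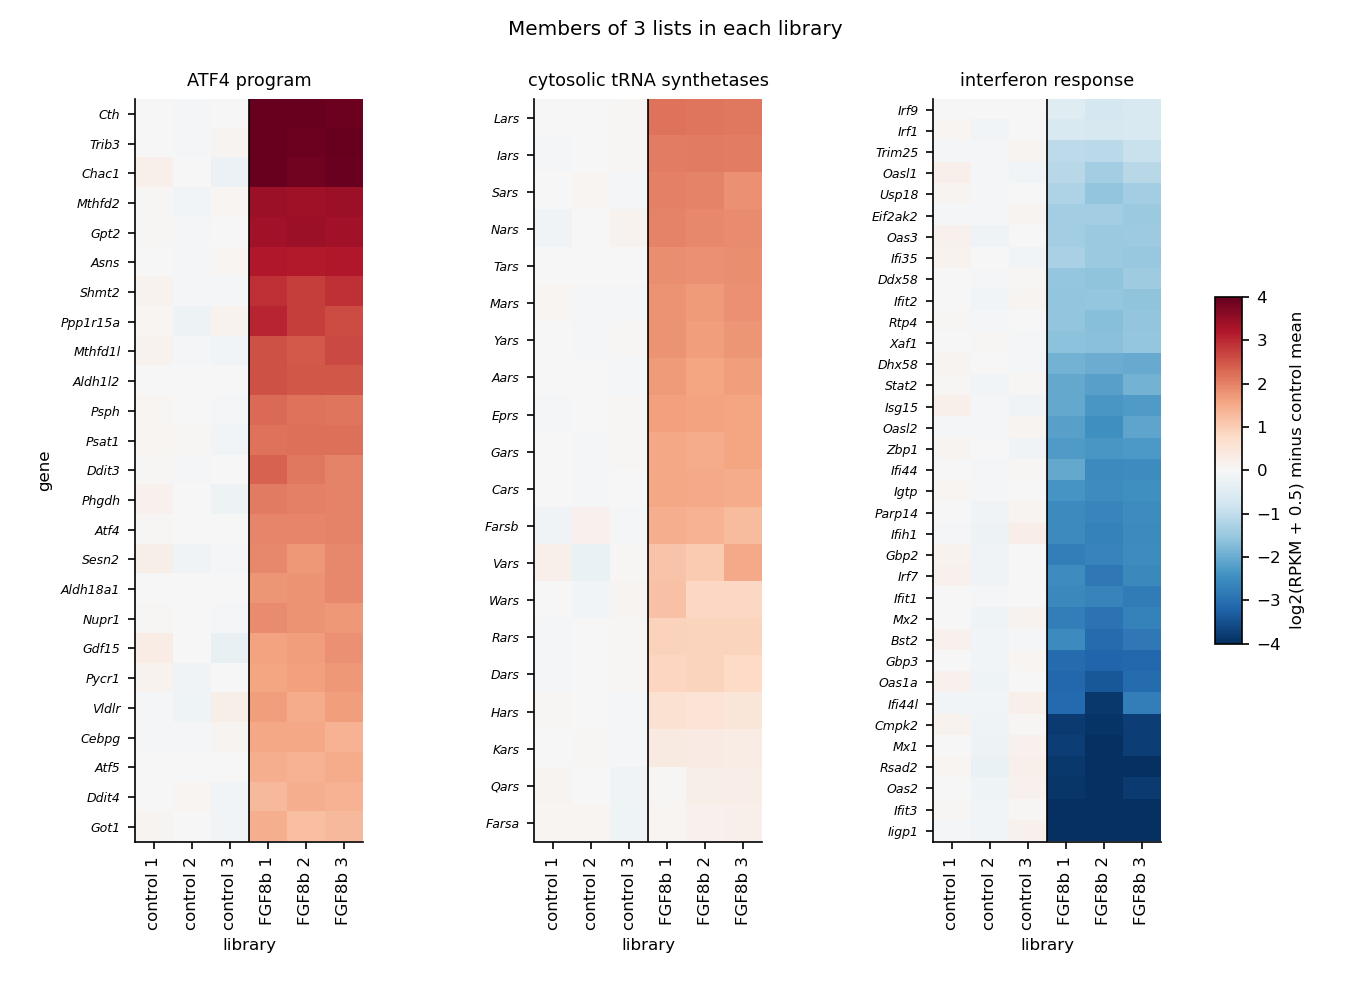
Heat map of the tested members of the ATF4 program (25 genes), the cytosolic tRNA synthetases (20) and the interferon response (35 of its 36), with 1 column per control and FGF8b library and colour for the log2 level relative to the mean of the control libraries, on a scale that ends at -4 and 4. The FGF8b columns are higher for all ATF4 genes and lower for all interferon genes drawn, and the libraries of a group look alike.

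Genes of the unfolded protein response had no common direction. For this list, 6 of 22 tested members rose and 7 fell, 2 and 1 of them at least 2-fold (median -0.04). Over all tested genes, 37.8% rose and 26.6% fell. Herpud1, which takes part in the degradation of misfolded proteins, rose from 18.4, 17.2 and 16.3 to 42.1, 38.9 and 40.9 RPKM (1.21 ± 0.06), and the sensors Atf6 and Ern1 rose by 1.15 and 0.90. The main chaperones Hspa5 (-0.10) and Hsp90b1 (0.06) and the factor Xbp1 (-0.11) did not pass, and Calr, the chaperone calreticulin, fell from 490.1, 468 and 500.2 to 269, 272 and 285 RPKM (-0.82 ± 0.05). Sdf2l1 (-1.26) and the kinase gene Eif2ak3 (-0.59), which encodes PERK, fell too. Heat shock proteins had 8 of 17 tested members higher and 7 lower, 2 and 2 of them at least 2-fold (median -0.04). The mitochondrial chaperones Hspa9, from 107, 105 and 119 to 447, 429.5 and 414 RPKM, and Hspd1 (1.10) and the cytosolic Hsp90ab1 (0.68) rose, while the inducible Hspa1b (-1.80), Hspa1a (-1.57) and Dnajb4 (-0.99) fell. Hspa1a and Hspa1b are near-identical copies, and how the table divided their reads is not stated.

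Of NRF2 and glutathione genes, 9 of 26 tested members rose and 14 fell, 1 and 7 of them at least 2-fold (median -0.21). Gsto1, an omega-class glutathione transferase, rose from 32.7, 33 and 34.4 to 186, 167 and 168 RPKM (2.36 ± 0.06), Txnrd1, the thioredoxin reductase, by 0.57, and Nfe2l2, the gene of NRF2, by 0.36. The secreted glutathione peroxidase Gpx3 fell from 61.9, 59.2 and 62.7 to 4.58, 5.54 and 6.94 RPKM (-3.34 ± 0.11), and the transferases Gstm1 and Gstt1 fell, at -2.75 (159, 154 and 155 to 20.4, 22.8 and 25.4 RPKM) and -2.51.

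Interferon-stimulated genes are switched on by a complex of factors that holds STAT2 and IRF9, at the ISRE (interferon-stimulated response element), searched here as GAAA, any 2 bases and GAAA again, on both strands. It was in 14 of 26 interferon response members with a RefSeq promoter (53.85%) and in 407 of the same 10381 genes (3.921%). Of the members with a match before the start, 3 that fell at least 2-fold are printed as above, again to show the position of the capitals. They need not be the members with the largest falls. Ifit3 (chr19:34583279-34583528, plus strand) has 2 matches, of which the first lies 156 to 147 bases before the start. The match of Rsad2 (chr12:26456453-26456702, minus strand) lies 120 to 111 bases before it. Oas1a (chr5:120907526-120907775, minus strand) has 2 overlapping matches, the first 20 to 11 bases before it.
Ifit3: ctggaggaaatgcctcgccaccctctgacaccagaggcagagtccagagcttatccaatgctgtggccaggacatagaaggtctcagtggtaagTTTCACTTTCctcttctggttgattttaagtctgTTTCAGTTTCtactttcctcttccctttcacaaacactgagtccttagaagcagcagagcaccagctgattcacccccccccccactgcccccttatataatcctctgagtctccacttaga
Rsad2: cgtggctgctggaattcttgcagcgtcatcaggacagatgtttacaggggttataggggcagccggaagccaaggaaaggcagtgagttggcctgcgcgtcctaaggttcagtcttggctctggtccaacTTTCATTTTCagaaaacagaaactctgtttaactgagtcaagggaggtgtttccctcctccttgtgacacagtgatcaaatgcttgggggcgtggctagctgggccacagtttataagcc
Oas1a: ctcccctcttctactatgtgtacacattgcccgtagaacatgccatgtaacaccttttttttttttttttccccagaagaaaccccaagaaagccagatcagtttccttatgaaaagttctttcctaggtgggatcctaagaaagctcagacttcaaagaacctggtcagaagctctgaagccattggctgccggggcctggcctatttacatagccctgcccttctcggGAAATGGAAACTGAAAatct

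The interferon response fell as a whole: 0 of 36 tested members rose and 36 fell, 0 and 34 of them at least 2-fold (median -2.34). Its summed level was 5619.5 to 6303 RPKM in control and 1031 to 1203 with FGF8b, and 32 to 34 members fell at least 2-fold across the alternative settings. Ifit3, which binds viral RNA together with its relatives, was at 942, 849 and 934 RPKM in the control libraries and 56.2, 52.7 and 55.5 RPKM in the FGF8b libraries (-4.04 ± 0.26, adjusted p = 1.44e-09). Iigp1, an interferon-induced GTPase, was at 185, 178 and 214 RPKM in the control libraries and 8.78, 7.84 and 8.68 RPKM in the FGF8b libraries, and Oas2, which makes the activator of RNase L, at 26.4, 23.7 and 30.4 RPKM in the control libraries and 1.32, 0.862 and 1.43 RPKM in the FGF8b libraries. All control libraries lay far above all FGF8b libraries. Stat2 (-2.03) and Irf7 (-2.66) fell more than 2-fold, and Irf9 (-0.60) and Irf1 (-0.62) less. The labels name no interferon for the control cells, in which Isg15 was at 471, 388 and 367 RPKM and Bst2, a protein that tethers viruses, at 1271, 1057 and 1094 RPKM.

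Antigen presentation followed the same direction. For MHC class I and antigen processing, 0 of 18 tested members rose and 18 fell, 0 and 13 of them at least 2-fold (median -1.78). Tap1, a subunit of the peptide transporter, fell from 62.9, 50.5 and 45.4 to 7.59, 7.73 and 10.8 RPKM (-2.54 ± 0.17), the immunoproteasome subunit Psmb9 (-2.44) and B2m, the light chain of MHC class I (-1.38), from 2294, 2200.5 and 2027 to 890.1, 777 and 845 RPKM. H2-T23 fell (-2.44), as did H2-K1 (-1.89) and H2-D1 (-1.89), the classical heavy chains; class I genes resemble each other, so their reads may be shared. Of the complement genes, 2 of 16 tested members rose and 14 fell, 1 and 11 of them at least 2-fold (median -2.61). C1s, a protease of the first component, fell from 328, 319 and 374 to 29.7, 30.2 and 34.2 RPKM (-3.42 ± 0.11, adjusted p = 5.27e-13), Serping1, its inhibitor, from 86.8, 69.9 and 88.2 to 7.04, 5.84 and 7.74 RPKM, and C4b, a gene with a close copy (-3.68). Masp1, a protease of the lectin pathway, rose by 1.27.

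Chemokines and cytokines moved in both directions. Of the list, 9 of 26 tested members rose and 12 fell, 5 and 11 of them at least 2-fold (median -0.23). The interferon-induced chemokines Cxcl9 and Cxcl10 fell from 22.1, 20.04 and 24.6 to 0.667, 0.470 and 0.565 RPKM and from 153, 114 and 132 to 12.6, 9.85 and 11.6 RPKM (-4.41 ± 0.10 and -3.49 ± 0.21). Cxcl5, which attracts neutrophils, fell (-3.33), and Cxcl12, the most abundant chemokine of the list, fell from 431, 399 and 464 to 81.3, 83.6 and 91.6 RPKM (-2.33 ± 0.06). After Il33 the rises were those of Tslp, a cytokine of epithelial and stromal cells (0.833, 1.005 and 1.13 to 4.75, 5.46 and 5.86 RPKM), Cxcl14 (1.82) and Tnfrsf11b, the decoy receptor osteoprotegerin (1.38). Il1rl1, the receptor of IL-33, did not pass (-0.11).

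**Figure D3:**
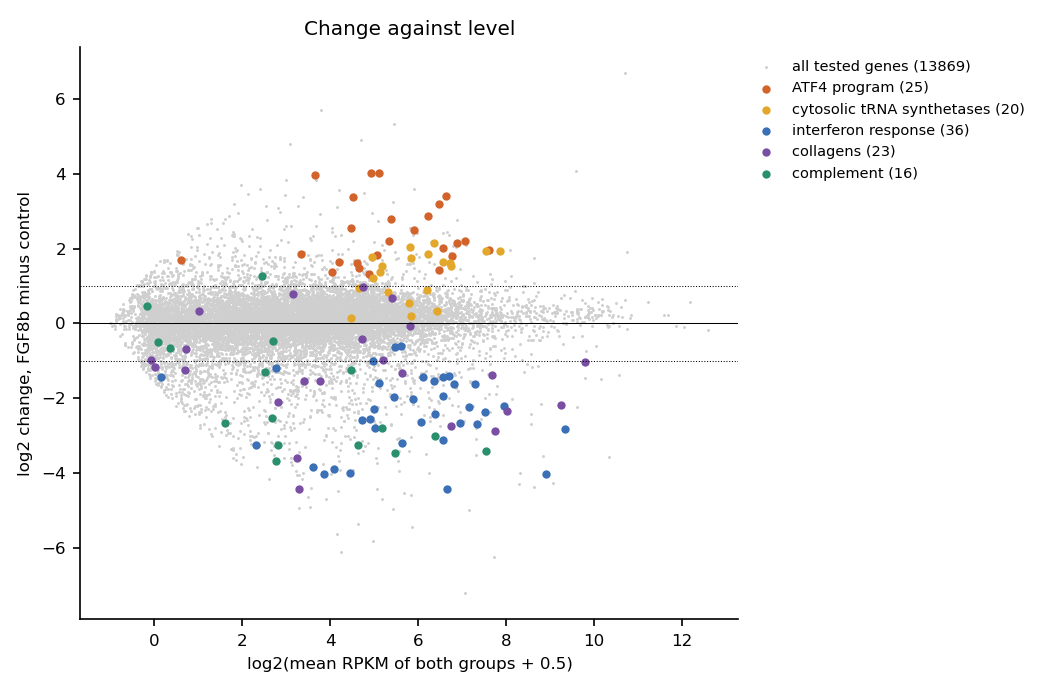
Change of FGF8b minus control (log2, vertical axis) against the mean level (log2(RPKM + 0.5), horizontal axis) for all 13869 tested genes in grey, with the members of 5 gene lists in colour and dotted lines at changes of -1 and 1. ATF4 genes lie above the upper line and nearly all interferon genes (34 of 36) below the lower.

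Most tested matrix genes fell. Of the collagens, 3 of 23 tested members rose and 18 fell, 0 and 14 of them at least 2-fold (median -1.24), and their summed level was 3518 to 4059 RPKM in control and 1237 to 1464 with FGF8b. Col1a1, a chain of the main fibrillar collagen, was at 523, 374 and 401 RPKM in the control libraries and 79.2, 73.5 and 103 RPKM in the FGF8b libraries (-2.34 ± 0.19, adjusted p = 3.02e-08). Col14a1 and Col12a1, which lie on the surface of fibrils, fell from 18.2, 16.95 and 19.1 to 0.402, 0.369 and 0.307 RPKM and from 16.3, 15.3 and 19.6 to 0.793, 0.722 and 1.41 RPKM, and Col6a1 of the beaded filaments from 402, 379 and 356 to 46.9, 47.9 and 59.4 RPKM. The control and FGF8b libraries of these genes did not overlap, a condition for the choice of most of them. The basement membrane chains Col4a1 (0.68), Col4a2 (0.98) and Col18a1 (0.78) rose instead.

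Small leucine-rich proteoglycans had 2 of 13 tested members higher and 8 lower, 1 and 7 of them at least 2-fold (median -1.30). Next to Ogn and Aspn, Ecm2 fell from 7.598, 7.6 and 9.06 to 0.466, 0.617 and 0.544 RPKM (-3.04 ± 0.09), whereas Dcn (decorin) rose from 469, 467 and 487 to 793, 824 and 800.0 RPKM (0.76 ± 0.08) and Lum (lumican) by 1.05. Bgn (biglycan), the most abundant of the list in control, did not pass (-0.04). For collagen cross-linking and elastic fibres, 4 of 27 tested members rose and 21 fell, 1 and 14 of them at least 2-fold (median -1.04). Lox, the lysyl oxidase that cross-links collagen and elastin, was at 730.5, 730.1 and 801 RPKM in the control libraries and 31.1, 33.9 and 44.2 RPKM in the FGF8b libraries, with no overlap (-4.37 ± 0.10, adjusted p = 1.01e-14). The microfibril gene Fbn2 fell from 19.8, 18.1 and 19 to 1.32, 1.603 and 1.45 RPKM and the fibulin Fbln7 (-2.84). Ltbp4 (1.02), Loxl4 (0.64) and Ltbp1 (0.40) rose.

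Of matricellular proteins and adhesive glycoproteins, 6 of 32 tested members rose and 22 fell, 2 and 20 of them at least 2-fold (median -1.48). The summed level of the list, in which Spp1 was the most abundant member with FGF8b, was 5179 to 5369 RPKM with FGF8b and 5525 to 5857 in control. Tnc, the matrix glycoprotein tenascin-C, rose from 28.8, 26.6 and 28.7 to 117, 129 and 141 RPKM (2.18 ± 0.10), and Lamb1, a laminin chain, by 0.81. Postn, periostin, fell from 2384, 2283 and 2466 to 201, 190.2 and 205 RPKM (-3.58 ± 0.08, adjusted p = 1.08e-14) and Sparc from 1323, 1319 and 1239 to 252, 270.4 and 307 RPKM (-2.23 ± 0.07). Wisp2 and Nid2 followed, with changes of -3.91 and -3.60. Of the matrix proteases, plasminogen activators and inhibitors, 8 of 31 tested members rose and 21 fell, 3 and 16 of them at least 2-fold (median -1.002). Adamts1, which cleaves proteoglycans, was at 140.2, 144 and 145 RPKM in the control libraries and 8.73, 8 and 8.95 RPKM in the FGF8b libraries (-3.99 ± 0.06, adjusted p = 2.28e-16). Adamts5 changed by -2.84 and Adamtsl1, a relative without a protease domain (-3.48). Mmp11 (1.61), Adam19 (1.19) and Plaur (1.14), the urokinase receptor, rose.

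Receptors for the matrix moved in both directions. Integrins and discoidin receptors had 9 of 20 tested members higher and 7 lower, 3 and 5 of them at least 2-fold (median 0.18). Itga6, a laminin receptor chain, was at 2.98, 2.84 and 3.57 RPKM in the control libraries and 21.3, 21.4 and 21.3 RPKM in the FGF8b libraries (2.60 ± 0.08, adjusted p = 1.69e-13), with no overlap. The collagen receptor chain Itga11 fell from 3.91, 3.17 and 3.77 to 0.0973, 0.0309 and 0.117 RPKM (-2.82 ± 0.09), Itgbl1 (-2.63) and Itga8, a partner of integrin beta-1 (-2.24), while Itga2 (1.05) and Itga3 (0.85) rose. In cadherins and cell adhesion molecules, 6 of 14 tested members rose and 6 fell, 3 and 3 of them at least 2-fold (median -0.07). Alcam, an adhesion molecule of the immunoglobulin family, rose from 7.51, 7.97 and 7.71 to 72.1, 76.9 and 82.9 RPKM (3.24 ± 0.07), and L1cam and Cadm4 by 1.27 and 1.25. Cdh11, the mesenchymal cadherin, fell from 92.9, 85.2 and 110.3 to 20.4, 21.5 and 20.8 RPKM (-2.17 ± 0.07), Vcam1 (-1.33) and Cdh2 (-0.61).

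Contractile genes and other targets of SRF and YAP were mostly lower: 3 of 25 tested members rose and 15 fell, 1 and 5 of them at least 2-fold (median -0.40). Tagln, an actin-binding protein of smooth muscle, fell from 65.8, 58.1 and 55.7 to 9.64, 9.04 and 8.83 RPKM (-2.64 ± 0.13), Amotl2, a regulator of YAP, from 38.3, 29.7 and 33.7 to 5.41, 4.49 and 5.32 RPKM, and the myosin light chain Myl9 (-2.49). Ankrd1, a YAP target, rose from 8.97, 9.68 and 8.798 to 24.99, 21.5 and 22.7 RPKM (1.29 ± 0.07), and Actn1 by 0.63. Lats2, a kinase that restrains YAP, rose by 0.53 with the transcript of highest mean, but its RefSeq transcript of highest mean gave -0.22.

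Of WNT genes, 6 of 34 tested members rose and 23 fell, 1 and 14 of them at least 2-fold (median -0.72). The secreted WNT antagonists Sfrp1 and Sfrp2 fell from 88.96, 77.9 and 89.3 to 5.58, 6.36 and 6.64 RPKM and from 95.5, 77.1 and 85.9 to 7.19, 6.75 and 8.99 RPKM (-3.68 ± 0.09 and -3.42 ± 0.11), after Sfrp4 among the largest falls. The R-spondin Rspo2, which enhances WNT signals, changed by -3.17, the ligand Wnt16 (-2.50) and the coreceptor Lrp6 (-1.48). Tcf7 (1.24), a nuclear effector, Fzd3 (0.67) and Nkd2 (0.64) rose. Axin2, a general target of the pathway, was under the level filter, at 0.101, 0.0496 and 0.115 RPKM in control and 0.0629, 0.0659 and 0.0277 with FGF8b.

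TGF-beta and BMP genes had 12 of 38 tested members higher and 20 lower, 4 and 11 of them at least 2-fold (median -0.40). Grem1, a BMP antagonist, rose from 7.92, 7.96 and 9.32 to 58.3, 61.03 and 55.7 RPKM (2.73 ± 0.08) and Skil, a repressor of SMADs, by 1.71. The antagonists Chrdl1 and Fst fell from 31.6, 31.5 and 37.3 to 2.19, 2.38 and 1.89 RPKM and from 17.6, 16.6 and 18.4 to 1.06, 1.04 and 1.42 RPKM, the ligand Tgfb2 (-2.44) and the receptor Tgfbr2 (-1.60). The BMP targets Id1, Id2, Id3 and Id4 were all lower, at -0.58, -1.82, -1.53 and -2.22. Bmpr1b rose by 1.09.

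In the Notch list, 1 of 9 tested members rose and 5 fell, 0 and 3 of them at least 2-fold (median -0.48). The ligand Jag1 fell from 6.64, 6.08 and 6.62 to 0.531, 0.711 and 0.976 RPKM (-2.50 ± 0.12), Dtx4 (-1.57) and Lfng (-1.37), and the target Hes1 rose by 0.95. For the Hedgehog list, 1 of 11 tested members rose and 7 fell, 1 and 3 of them at least 2-fold (median -0.28). The coreceptors Boc (from 5.32, 4.11 and 4.43 to 0.551, 0.519 and 0.407 RPKM) and Gas1 (from 133, 138 and 159.8 to 39.6, 48.1 and 48.1 RPKM) and the target Foxf1 (-1.44) fell, and Hhip, which binds Hedgehog ligands, rose from 0.283, 0.209 and 0.293 to 4.59, 5.36 and 4.47 RPKM (2.80 ± 0.15). Retinoid genes had 5 of 16 tested members higher and 8 lower, 2 and 3 of them at least 2-fold (median -0.22). With FGF8b, Crabp1 made up most of the summed level of the list, which was 256 to 292 RPKM in control and 1527 to 1736 with FGF8b. The enzymes that make retinoic acid split: Aldh1a1 fell from 3.58, 3.57 and 4.35 to 0.0316, 0.0689 and 0.0696 RPKM and Aldh1a2 (-1.17), whereas Aldh1a3 rose by 1.82 and Rdh10 by 0.90. Dhrs3, which returns retinal to retinol, changed by -2.45.

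Nuclear receptors had 7 of 16 tested members higher and 5 lower, 2 and 4 of them at least 2-fold (median 0.11). Vdr, the vitamin D receptor, fell from 7.11, 6.95 and 6.74 to 0.744, 0.624 and 0.853 RPKM (-2.59 ± 0.10), and Esr1, an oestrogen receptor, from 2.02, 1.93 and 2.14 to 0.258, 0.327 and 0.396 RPKM. Nr4a2 (1.44), Rora (1.07) and Nr2f2 (0.81) rose. Of the transcription factors of skeletal and limb mesenchyme, 8 of 27 tested members rose and 16 fell, 1 and 6 of them at least 2-fold (median -0.33). Prrx2 fell from 36.3, 32.4 and 26.9 to 4.97, 4.63 and 5.997 RPKM (-2.50 ± 0.15), Osr2 (-1.79) and Hic1, a factor of quiescent mesenchyme (-1.40), while Scx (1.41), the factor of tendons, and Runx1 (0.98) rose. The proliferins, prolactin relatives of the placenta also made by growing fibroblasts, had 4 of 4 tested members higher and 0 lower, 4 and 0 of them at least 2-fold (median 1.71), with Prl2c2 going from 15.8, 15.9 and 18.1 to 50.7, 58.2 and 56.3 RPKM, Prl2c3 at 1.78 and Prl2c5 at 1.71. These genes are near-identical, so the split of reads between them is uncertain. Of imprinted genes, 2 of 13 tested members rose and 10 fell, 1 and 5 of them at least 2-fold (median -0.62). After Mest, Plagl1, a factor that controls other imprinted genes, fell from 34.6, 38.5 and 43.7 to 3.84, 4.08 and 4.34 RPKM (-3.10 ± 0.08), and Meg3 fell as well (-1.10), though its libraries within a group varied widely, from 33.7, 40.6 and 62.7 to 17.8, 14.4 and 32.6 RPKM. Snrpn rose by 1.19.

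Among genes of energy metabolism, those of glycolysis mostly rose. Of glycolysis and lactate genes, 18 of 26 tested members rose and 2 fell, 10 and 0 of them at least 2-fold (median 0.88), and the summed level was 1694 to 1838 RPKM in control and 3255 to 3899 with FGF8b. Pgk1, the first enzyme of the pathway that makes ATP, was at 185, 184 and 175 RPKM in the control libraries and 550.2, 628 and 659 RPKM in the FGF8b libraries (1.75 ± 0.08, adjusted p = 2.87e-11). Slc16a3, which exports lactate, rose from 4.29, 3.22 and 2.99 to 16.2, 16.99 and 23.7 RPKM (2.28 ± 0.18), the hexokinase Hk2 by 1.54, Ldha by 1.27 and the glucose transporter Slc2a1 from 15.6, 14.02 and 14.2 to 39, 35.1 and 41.1 RPKM (1.36 ± 0.10). None of these groups overlapped, which the choice of most of these genes required. Pfkm (-0.48) and Eno2 (-0.47), the muscle and neuronal forms of their enzymes, fell. Txnip, the glucose-sensitive inhibitor of glucose uptake, did not pass (-0.12).

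Hypoxia genes had 10 of 20 tested members higher and 3 lower, 7 and 1 of them at least 2-fold (median 0.28). Ero1l, an oxidase of the endoplasmic reticulum, rose from 19.9, 19.1 and 19.3 to 112, 103 and 101 RPKM (2.41 ± 0.08), and the oxygen-sensing hydroxylase Egln3 from 0.536, 0.785 and 0.553 to 4.33, 5.19 and 6.71 RPKM. Car9, a carbonic anhydrase on the cell surface, rose from 0.0314, 0.0347 and 0.0875 to 1.86, 2.61 and 4.14 RPKM (2.56 ± 0.31). Its FGF8b libraries spread widely, and all lay above control. Adm, the peptide adrenomedullin and another hypoxia gene, fell from 44.9, 37.7 and 41.7 to 7.27, 7.4 and 7.604 RPKM (-2.40 ± 0.10), and P4ha2 changed by -0.39.

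Members of the citrate cycle, fatty acid oxidation and respiratory chain lists mostly moved by less than 2-fold. For the citrate cycle and fatty acid oxidation, 8 of 26 tested members rose and 9 fell, 0 and 1 of them at least 2-fold (median -0.01). Citrate cycle genes were among the rises, with Idh3a at 0.80, Dlst at 0.70 and Mdh2 at 0.49, and genes of fatty acid oxidation among the falls, with Cpt1a at -0.68 and Acadvl at -0.64. Pcx, the pyruvate carboxylase, fell from 5.36, 5.38 and 4.56 to 2.03, 1.94 and 2.59 RPKM (-1.06 ± 0.14). Respiratory chain subunits had 24 of 47 tested members higher and 3 lower, 1 and 0 of them at least 2-fold (median 0.14). With trimmed-mean scaling, 16 were higher and 4 lower (median 0.07). Uqcrq went from 33.8, 29.9 and 21.3 to 68.9, 56.8 and 53.99 RPKM, Cycs (cytochrome c) rose by 0.91 and Atp5g1 by 0.79, and Cox6c, Ndufa4 and Sdhc fell, at -0.67, -0.34 and -0.27.

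Sterol synthesis was lower: 1 of 24 tested members rose and 19 fell, 0 and 4 of them at least 2-fold (median -0.63). Hmgcs1, an early enzyme of the pathway, was at 107, 106 and 104 RPKM in the control libraries and 44.5, 49 and 52.4 RPKM in the FGF8b libraries (-1.11 ± 0.09, adjusted p = 2.57e-08). Tm7sf2, a sterol reductase, fell from 16.1, 13.9 and 12.2 to 2.65, 3.09 and 4.23 RPKM and Nsdhl (-1.06), with separate groups of libraries. The regulator Srebf2 (0.03) did not pass, and Insig1, which holds SREBP back, rose by 0.29. The sterol response element, searched as TCACNCCAC, was in 1 of 16 members with a promoter (6.25%) and in 140 of all 10381 (1.349%). Fatty acid synthesis and desaturation had 3 of 18 tested members higher and 6 lower, 1 and 0 of them at least 2-fold (median -0.07), with Fads2 at -0.71, Acly at -0.71, Acacb at -0.56, Fads3 at 0.48, Acsl1 at 0.74 and Acsl4 at 1.04.

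Genes of growth and division changed less than 2-fold for the most part. Ribosome biogenesis, a target of MYC, had 29 of 29 tested members higher and 0 lower, 10 and 0 of them at least 2-fold (median 0.86); under trimmed-mean scaling 6 instead of 10 were at least 2-fold. Rrp9 went from 4.44, 4.68 and 3.61 to 11.8, 10.2 and 9.31 RPKM, Dkc1, the pseudouridine synthase, from 24.2, 23.8 and 26.5 to 58.4, 62.9 and 52.04 RPKM and Rrs1 from 3.61, 3.82 and 3.903 to 10.1, 9.57 and 8.27 RPKM. The groups were separate for each of these genes, as the rule for naming them required, and Myc itself rose by 0.95. Of DNA replication genes, 24 of 32 tested members rose and 1 fell, 0 and 0 of them at least 2-fold (median 0.47). The loading factors Cdc45, Cdt1 and Mcm10 rose by 0.88, 0.82 and 0.82, Pcna did not pass (0.11), and Gins3 fell (-0.26). For mitosis and spindle genes, 10 of 24 tested members rose and 5 fell, 0 and 0 of them at least 2-fold (median 0.11). With trimmed-mean scaling, 6 of them rose and 6 fell (median 0.04). Bub1 (0.63), Aurkb (0.46) and Top2a (0.45) rose, and Cdc20, which activates the anaphase-promoting complex, fell from 51.9, 46.9 and 45.02 to 26.9, 28.3 and 33.7 RPKM (-0.69 ± 0.10). Kif20a fell (-0.18), a call lost without FGF8b replicate 1 (adjusted p = 0.0578 in limma). Cenpe fell (-0.21) and lost its call without FGF8b replicate 1 (adjusted p = 0.203) and without control replicate 3 (adjusted p = 0.165).

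G1 cyclins and CDK genes had 7 of 16 tested members higher and 3 lower, 2 and 0 of them at least 2-fold (median 0.03). Ccnd1, cyclin D1, an ERK-induced activator of CDK4 and CDK6, was at 7.699, 7.56 and 7.97 RPKM in the control libraries and 34.5, 37.2 and 40.2 RPKM in the FGF8b libraries (2.19 ± 0.08, adjusted p = 2.08e-12), without overlap. Ccnd2 rose by 1.07 and Cdk6 by 0.58. Lower were the inhibitors Cdkn1b (-0.52) and Cdkn2c (-0.44) and the pocket protein gene Rbl2 (-0.68). Of p53 targets, 6 of 18 tested members rose and 10 fell, 1 and 7 of them at least 2-fold (median -0.34). Fas, the death receptor, fell from 4.305, 3.28 and 3.58 to 0.603, 0.7799 and 0.6402 RPKM (-1.84 ± 0.13), Sesn1 (-1.45) and Trp53inp1 (-1.26). Gadd45a rose from 6.75, 6.06 and 7.07 to 59.1, 54.8 and 49.04 RPKM (2.94 ± 0.07); this stress gene is also a known ATF4 target. Pmaip1 (0.85) and Bbc3 (0.74) rose, and Cdkn1a did not pass (-0.04).

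Brown fat genes other than Ucp1 had no common direction. Of the brown thermogenic genes, 5 of 16 tested members rose and 5 fell, 2 and 3 of them at least 2-fold (median 0.05). Over all tested genes, 37.8% rose and 26.6% fell, 4.87% and 8.04% at least 2-fold (median 0.08). In this list 8 further members were at or under 0.452 RPKM. Prdm16, which determines brown fat identity, rose at a low level, from 0.247, 0.147 and 0.283 to 1.11, 0.874 and 1.03 RPKM (1.05 ± 0.16), and Cox7a1 by 0.91. Ppargc1a, the coactivator of thermogenic genes, fell at a low level, from 0.297, 0.268 and 0.389 to 0.0987, 0.0646 and 0.06797 RPKM (-0.50 ± 0.10, adjusted p = 6.12e-04 in limma). All these values lie under the 0.5 RPKM of the level filter, which the gene passed through libraries of other groups. The deiodinase Dio2 fell from 1.15, 1.17 and 1.37 to 0.232, 0.275 and 0.3104 RPKM, the creatine kinase Ckb from 3.75, 2.89 and 2.83 to 0.828, 0.801 and 0.888 RPKM, and Pdk4, which blocks pyruvate oxidation, from 10.3, 10.2 and 11.1 to 1.92, 1.703 and 1.77 RPKM. In all 4 of these falls the control libraries lay above the FGF8b libraries, as the choice of most of them required.

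Of adipocyte differentiation and lipid droplet genes, 5 of 23 tested members rose and 12 fell, 1 and 4 of them at least 2-fold (median -0.43). Pparg, the master regulator of fat cells, was at 3.93, 3.42 and 3.9 RPKM in the control libraries and 3.16, 2.22 and 2.66 RPKM in the FGF8b libraries (-0.43 ± 0.11, adjusted p = 0.00291), with separate groups. The lipases Lpl and Lipg fell from 80.5, 67.2 and 88.7 to 17.96, 16.9 and 16.7 RPKM and from 16.7, 17.6 and 16.8 to 0.5603, 0.587 and 0.798 RPKM, and Enpp2, which makes lysophosphatidic acid, from 14.5, 14.3 and 15.7 to 0.903, 0.851 and 1.25 RPKM (-3.36 ± 0.10). Dgat2, the last step of triglyceride synthesis, rose from 1.67, 1.499 and 1.79 to 4.98, 4.21 and 5.29 RPKM, Cebpb by 0.99 and the droplet coat protein Plin2 by 0.59. Of mesenchymal progenitor genes, 3 of 21 tested members rose and 16 fell, 1 and 6 of them at least 2-fold (median -0.73). Ly6a, the progenitor surface marker SCA-1, fell from 1046, 932 and 1067 to 52.7, 49.7 and 55.6 RPKM (-4.25 ± 0.08, adjusted p = 1.94e-15), and Fap (-3.25). Pi16, which marks fibroblast progenitors, rose from 0.892, 0.761 and 0.783 to 5.402, 5.6 and 6.58 RPKM (2.27 ± 0.12), with Cd44 at 0.85.

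Adrenergic and cyclic AMP genes had 10 of 23 tested members higher and 7 lower, 3 and 1 of them at least 2-fold (median 0.08). Adcy7, an adenylyl cyclase, rose from 6.78, 6.69 and 6.27 to 16.4, 17.4 and 18.05 RPKM (1.33 ± 0.06), Adra2a, the inhibitory receptor, from 0.174, 0.0963 and 0.182 to 1.03, 1.09 and 1.399 RPKM and the catalytic subunit Prkacb by 0.94. The phosphodiesterase Pde7b (-0.71) and the cyclases Adcy6 (-0.43) and Adcy3 (-0.33) fell. Adrb3, the main receptor for noradrenaline in brown fat, was at 0.0307, 0 and 0.0191 RPKM in control and 0.02296, 0 and 0 with FGF8b. For prostaglandin genes, 7 of 14 tested members rose and 6 fell, 2 and 2 of them at least 2-fold (median 0.20). The cyclooxygenases Ptgs2 and Ptgs1 rose from 2.81, 3.02 and 3.35 to 8.97, 8.14 and 7.98 RPKM and from 25.8, 25.04 and 25.01 to 50.3, 48.6 and 55.7 RPKM, and the prostacyclin receptor Ptgir by 0.75. Ptgfr, the receptor of prostaglandin F, fell from 13.5, 14.6 and 12.4 to 3.59, 3.63 and 3.55 RPKM (-1.77 ± 0.08), the importer Slco2a1 (-1.48) and Ptger4 (-0.95).

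Circadian clock genes had 4 of 12 tested members higher and 4 lower, 2 and 1 of them at least 2-fold (median -0.02). Arntl, the positive clock factor BMAL1, rose from 4.55, 4.58 and 4.24 to 11.1, 10.6 and 11.7 RPKM (1.23 ± 0.09), Cry1 by 0.81 and Clock by 0.39, and Tef (-1.09), Per3 (-0.99) and Per1 (-0.85) fell; the hour of harvest of each group is not given in the sources used here. Lysosome and autophagy genes had 5 of 26 tested members higher and 14 lower, 1 and 0 of them at least 2-fold (median -0.25). Ctsl, a secreted and lysosomal protease, rose from 758, 688 and 747 to 2712, 2733 and 2743 RPKM (1.90 ± 0.06, adjusted p = 6.78e-13), Sqstm1 by 0.67 and Atg5 by 0.34. Ctsd (-0.79) and Lamp2 (-0.67) fell. Of iron, copper and zinc genes, 8 of 18 tested members rose and 7 fell, 1 and 2 of them at least 2-fold (median -0.06), with Steap1, of the STEAP family of metalloreductases, going from 4.502, 4.32 and 4.895 to 30.8, 27.3 and 24.1 RPKM, the zinc carrier Slc39a14 at 0.86 and the transferrin receptor Tfrc at 0.66. Steap4, Trf and Slc39a8 were lower, at -1.29, -1.07 and -0.77.

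**Figure D4:**
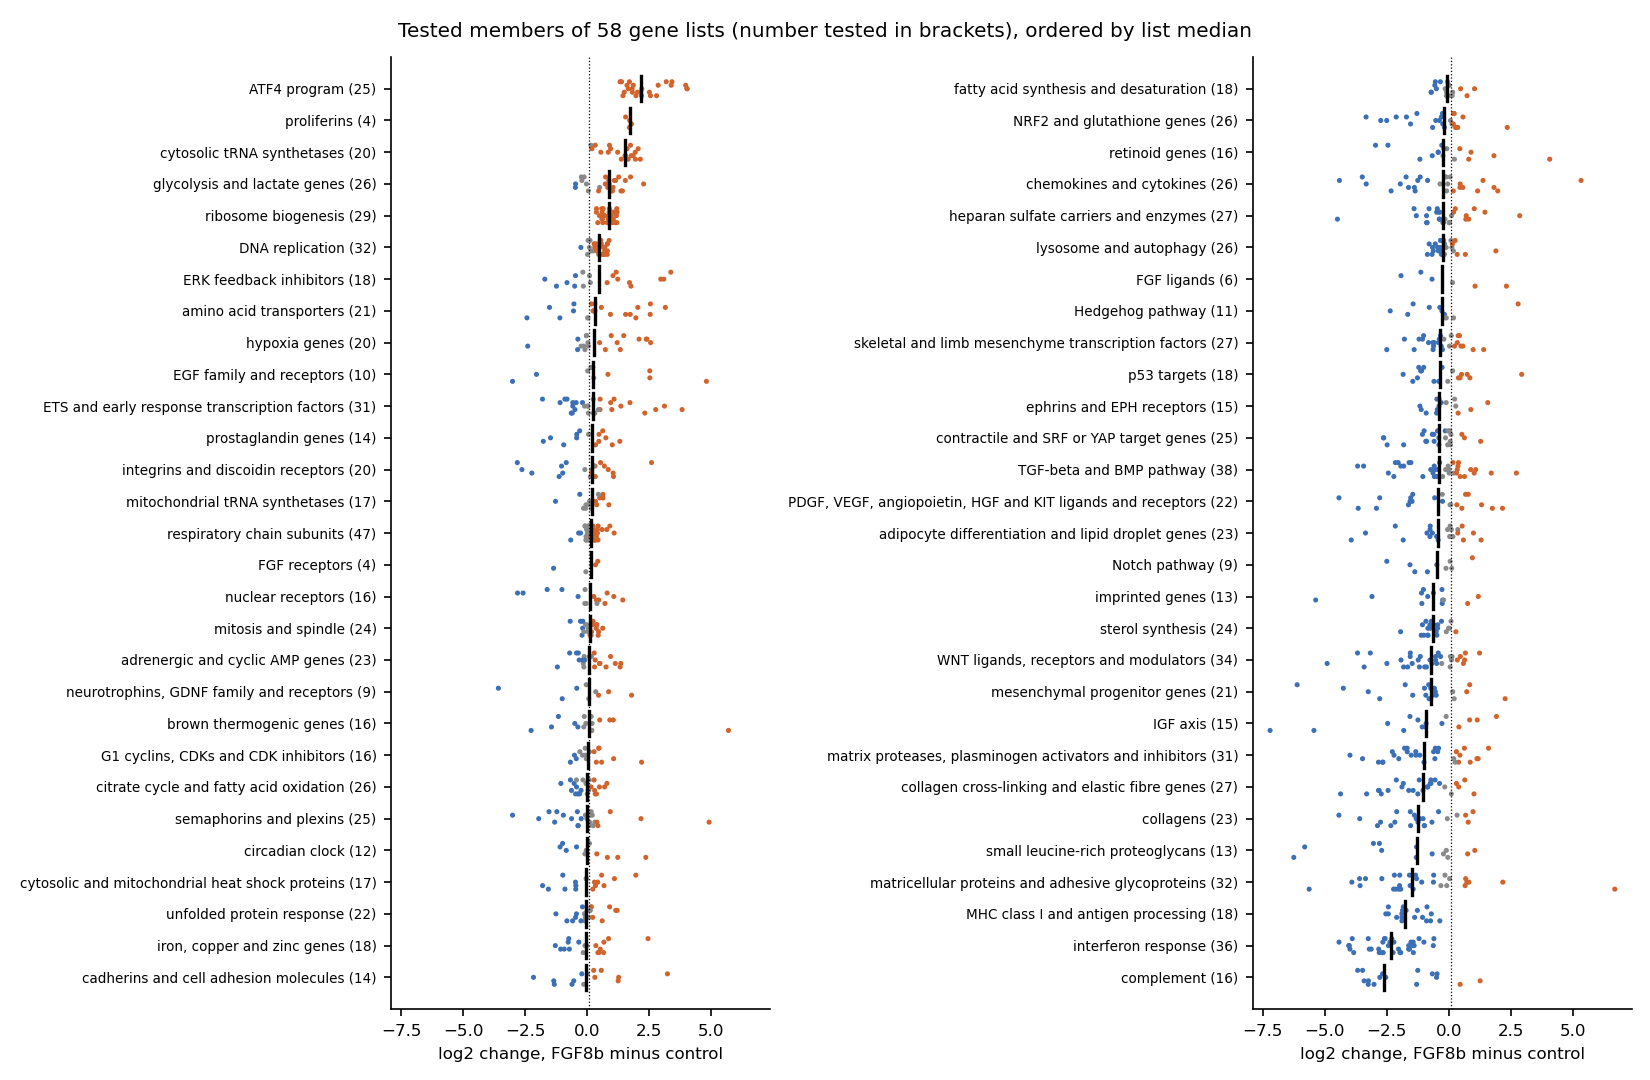
Change of FGF8b minus control (log2) for the tested members of the 58 gene lists, 1 row per list, with members that rose in orange, that fell in blue and that did not pass in grey; the black bar is the median of the list and the dotted line that of all tested genes (0.08). The ATF4 program lies wholly to the right, with a median of 2.16, and the interferon response wholly to the left, at -2.34.

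FGF8b was then set against FGF1 and FGF9 at the same dose and time. Both comparisons use the same FGF8b libraries, and the first comparison uses them too. Against FGF1, which binds all FGF receptors, 8312 genes differed by limma (59.9%), 4618 higher (33.3%) and 3694 lower (26.6%) with FGF8b. At least 2-fold differences were 526 higher (3.79%) and 860 lower (6.2%). Ucp1 stood at 0.0184 ± 0.0161 RPKM with FGF1 and 26.7 ± 1.26 with FGF8b (mean ± SD, n = 3), a difference of 5.71 ± 0.11, adjusted p = 3.36e-15. Il33 (3.46 ± 0.324 and 85.01 ± 2.54), Areg (0.2798 ± 0.0832 and 15.9 ± 0.572), Car6 (0.431 ± 0.244 and 14.5 ± 4.53) and Etv4 (4.54 on the log2 scale) were the other 4 of the 5 largest differences upward. The 5 largest downward were those of Aspn (-5.04), Mest (-4.66), Lox (-4.79), Mfap4 (-4.87), a microfibril protein, and the integrin chain Itga11 (-4.69). For Lox the levels were 1009.8 ± 10.5 RPKM with FGF1 and 36.4 ± 6.9 with FGF8b.

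By gene list, of the ATF4 program 24 of 25 were higher and 0 lower with FGF8b, 23 and 0 at least 2-fold, and the median difference was 1.92. Of the cytosolic tRNA synthetases 20 of 20 were higher and 0 lower with FGF8b, 13 and 0 at least 2-fold. Among interferon response genes 0 of 36 were higher and 32 lower with FGF8b, 0 and 21 at least 2-fold, and among collagens 3 of 23 were higher and 20 lower with FGF8b, 1 and 15 at least 2-fold. Of sterol synthesis genes 0 of 24 were higher and 24 lower with FGF8b, 0 and 13 at least 2-fold, with Hmgcs1 at 184 ± 6.05 RPKM under FGF1 and 48.6 ± 3.99 under FGF8b. Of glycolysis and lactate genes 7 of 26 were higher and 9 lower with FGF8b, 1 and 0 at least 2-fold. Pgk1 was at 566 ± 17.1 with FGF1 and 612 ± 55.9 with FGF8b (difference 0.11 ± 0.08, adjusted p = 0.252). Of the ERK feedback inhibitors 13 of 18 were higher and 4 lower with FGF8b, 8 and 1 at least 2-fold, and Dusp6 was at 0.941 ± 0.172 against 18.6 ± 0.593 RPKM (3.74 ± 0.09, adjusted p = 2.02e-14). Ccnd1 was at 2.58 ± 0.389 with FGF1 and 37.3 ± 2.88 with FGF8b (3.62 ± 0.08, adjusted p = 1.27e-14). Dusp6 and Ccnd1 thus stood far above their FGF1 levels, while the difference in Pgk1 did not pass.

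Against FGF9, 41 genes differed by limma (0.296%), 13 higher (0.0937%) and 28 lower (0.202%) with FGF8b, and 0 by 2-fold or more, while 977 had an unadjusted p under 0.05. The same count by limma-voom on recovered reads was 62, with 4 lower by at least 2-fold. No overlap between the libraries was seen for 1504 genes (10.8%). With 3 libraries per group and 13869 genes, many such separations and unadjusted p under 0.05 arise without any difference. Ptgfr (0.75 ± 0.08, adjusted p = 0.00101), H19 (0.79 ± 0.12, adjusted p = 0.0138), an imprinted RNA, Il15 (0.61 ± 0.12, adjusted p = 0.0366), Mme (0.54 ± 0.09, adjusted p = 0.0191), a membrane peptidase, and Lrrc17 (0.53 ± 0.08, adjusted p = 0.0178) were the largest differences upward. Downward they were Spry4 (-0.77 ± 0.08, adjusted p = 5.00e-04), Aff2 (-0.72 ± 0.14, adjusted p = 0.0495), Plau, the urokinase (-0.68 ± 0.08, adjusted p = 0.0011), Adcy8 (-0.67 ± 0.12, adjusted p = 0.0227) and Egr1 (-0.64 ± 0.08, adjusted p = 0.00116). Aff2 lost its call in 14 of 16 alternative settings, Il15 in 10, Mme in 7, Adcy8 in 6, Lrrc17 in 4 and H19 in 3. Among these, leaving out any library ended the calls of Aff2 (adjusted p = 0.0529 to 0.324 in limma) and Il15 (0.0672 to 0.22), and any library but FGF9 replicate 1 that of Mme (0.0592 to 0.111). Adcy8 lost its call without FGF8b replicate 1 or 2 or FGF9 replicate 2 or 3 (adjusted p = 0.0789 to 0.126), Lrrc17 without FGF8b replicate 2 or FGF9 replicate 2 or 3 (0.0501 to 0.0768), and H19 without FGF8b replicate 2 or FGF9 replicate 3 (0.0553 and 0.0765). Ptgfr, Spry4, Plau and Egr1 lost theirs only in the fit to the libraries of both groups alone. Spry4 was at 6.13 ± 0.348 RPKM with FGF8b and 10.8 ± 0.1002 with FGF9, and H19 at 95.9 ± 16.9 and 54.8 ± 4.76. Without FGF8b replicate 1, 2 or 3 the calls numbered 10, 7 and 17, and without FGF9 replicate 1, 2 or 3 they numbered 35, 10 and 6. In the fit with only the libraries of these groups, 0 genes passed and 804 had an unadjusted p under 0.05 in limma. Heparin appears in the labels of FGF9 only. If the FGF8b cells had none, FGF9 and heparin cannot be told apart in this comparison. Ucp1 was at 37.4 ± 2.94 RPKM with FGF9 (-0.48 ± 0.11, adjusted p = 0.108) and Il33 at 119.5 ± 12.7 (-0.48 ± 0.12, adjusted p = 0.159), neither passing. A p that misses the threshold does not show that these levels are the same.

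**Figure D5:**
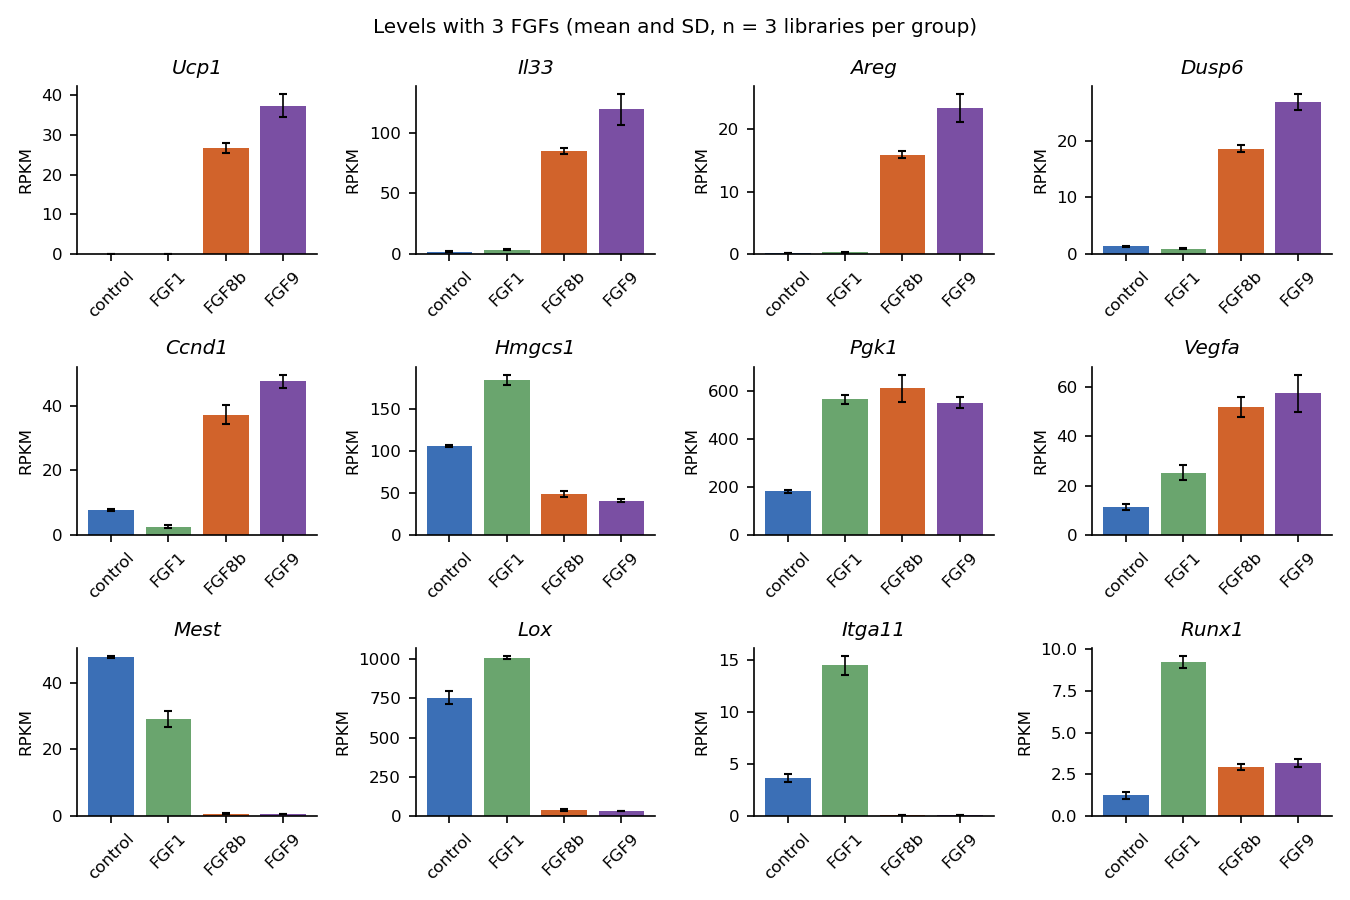
Mean RPKM of 12 named genes in control and with FGF1, FGF8b and FGF9 (bars, with SD over 3 libraries as error bars and each axis starting at 0). Ucp1 stands at 26.7 and 37.4 RPKM with FGF8b and FGF9 against 0.0184 with FGF1, and Pgk1 stands above control with all 3 FGFs.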

How the data were processed

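The authors deposited 1 table of RPKM values for 15 libraries, 3 in each of 5 groups. Per the submitters' processing notes, CASAVA and bcl2fastq were used. For the aligner, counting, genome build and annotation, names were not given in the sources used here. The deposited table holds 168326 lines, 1 per transcript, of which 23172 without a symbol were left out; each of the 29072 genes is represented by its transcript of highest mean over all libraries. The values in that file are not counts, so the branch of the design meant for counts was not used. Values times transcript length fell within 0.05 of whole steps for 94.3 to 95.1% of low values over 46002 Ensembl transcripts of known length, and reads were recovered from these steps within 0.02 read for all 13869 tested genes. A known transcript length was kept where it fitted the steps, which held for 90.9% of 3476 tested genes with such a length. Elsewhere the shortest fitting length was taken, so some recovered reads may be wrong. Read totals printed in the report are these recovered values.

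Genes that reached 0.5 RPKM in 3 or more libraries were tested with limma 3.58.1 in R 4.3.3, its empirical Bayes step following a mean-variance trend, on log2(RPKM + 0.5) over all 15 libraries, and p-values were adjusted by Benjamini-Hochberg over all tested genes at a threshold of 0.05. Summaries used Python 3.11.15, NumPy 2.4.6, pandas 2.3.3, SciPy 1.17.1 and matplotlib 3.10.9. The fit was also run on simulated data in which each gene had the same spread in all groups. That run cannot test p-values under a spread that differs between groups. Libraries of a group differed by more than the sampling noise of their reads, at a chi-square per degree of freedom of 3.96 to 5.80 within FGF8b and 11.9 to 19.9 within control.

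The members and gene lists were chosen with earlier results of these data known, so their counts and medians are descriptions. Genes were named by a rule: per direction the 12 with the largest change of FGF8b against control that passed, had no overlap between the groups, at least 1 RPKM in either group and no predicted gene model, then up to 3 per direction in each list, 6 genes picked by name (Ucp1, Ppargc1a, Pparg, Fgfr1, Dusp6 and Slc2a1) and the 5 largest per direction against FGF1 and against FGF9. Further list members were named after their values were seen. Gene positions come from GENCODE vM21 and promoters from RefSeq, both on GRCm38. Alternatives changed the pseudocount, the filter, the scaling, the libraries fitted, the trend, the transcript chosen and the replicate set, and included limma-voom on recovered reads. Some members counted in the lists are not reported here by name.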

Additional observations from a re-analysis of the deposited data

How the results depend on the processing

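Against control and against FGF1, the numbers of genes called stayed within 1.5 times those reported in every setting run, apart from 827 genes at least 2-fold higher than with FGF1 by limma-voom on recovered reads. Leaving out 1 library gave 8126 to 8478 calls against control and 7539 to 7944 against FGF1. Trimmed-mean scaling moved the split against FGF1 to 4131 higher and 4134 lower. The few calls against FGF9 changed most. A pseudocount of 0.1 gave 27 (17 lower, 3 of them 2-fold), no filter gave 8 higher, the fit to only the libraries of both groups gave 0 (0 higher and 0 lower), limma-voom gave 62 (49 lower, 4 of them 2-fold), the highest-mean RefSeq transcript gave 70 (52 lower), and leaving out 1 library gave 6 to 35 (2 to 11 higher, 4 to 24 lower). The cause was not tested. For Lats2 the highest-mean RefSeq transcript reversed the change to -0.22. For Fgfr1, which did not pass, leaving out 1 library gave -0.12 to 0.024. In limma, Cenpe also lost its call in the fit to only the libraries of both groups (adjusted p = 0.0863). The median of 10 of 58 gene lists changed sign in at least 1 setting, all of them lists with a reported median of at most 0.14 in size. The labels share replicate numbers between groups but state no pairing, so the numbers were not taken as pairing in the main fit. The deviations of same-numbered FGF8b and control libraries correlated at 0.00957 to 0.149, with 2 of 3 pairs above 0.1, and 4 of 6 libraries correlated best with their own number. These values do not settle whether the libraries were paired. With the replicate number as a block, 9016 genes were called against control, 8403 against FGF1 and 30 against FGF9. Depth limits the genes at or near 0 reads, for which the ratio of levels carries a wide interval, and 3 libraries per group limit the precision of each mean.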
